A study of Mus musculus with 6 samples.

Results

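The solute carrier (SLC) genes encode membrane proteins that move sugars, amino acids, ions, metals, nucleotides and cofactors across the plasma membrane and the membranes of organelles. Members were all peaks of the NF-YA table whose gene symbol begins with Slc followed by a digit. The rule used only the name of the annotated gene, and it found 91 of 9056 peaks, at 75 genes of 31 families. Of the 75 genes, 61 had 1 peak, 12 had 2 peaks and 2 had 3 peaks. A peak received a gene symbol only if it lay near a gene, and 5146 of the 9056 peaks carried one. All 75 genes were found in the GENCODE M21 annotation as protein-coding genes. The name does not guarantee a transporter: Slc9a3r1 encodes a scaffold protein that binds a sodium/proton exchanger, and Slc3a2 encodes the heavy chain that carries amino acid transporters to the cell surface.

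The peaks come from CUT&RUN with an antibody against NF-YA. In this assay the antibody guides a nuclease to its target and the DNA cut out around it is sequenced. The cells were muscle stem cells (MuSCs) of wild type C57BL/6 mice, cultured in vitro and described as activated/proliferating, with 1e6 cells per library. There were 3 libraries with an antibody against NF-YA and 3 with mouse IgG, of which the latter were not analysed here. The study describes the NF-YA libraries as biological replicates, and the labels do not tie them to mice or cultures.

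NF-Y is a heterotrimeric transcription factor in which NF-YA recognises the CCAAT box, a short promoter element usually found shortly upstream of transcription start sites (TSS), while NF-YB and NF-YC form a histone-like dimer. Proliferating cells import glucose, amino acids and phosphate through SLC proteins of the plasma membrane. The largest SLC family, Slc25, holds the carriers of the inner mitochondrial membrane, which exchange nucleotides, cofactors, iron and amino acids with the cytosol.

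The DNA under the strongest SLC peaks is shown first, because the CCAAT box is the element that NF-YA reads and because number and position of the boxes accompany the levels described below. Each run below holds 29 bases around the box nearest to the peak centre, in GRCm38.p6, the assembly behind mm10, read 5′ to 3′ on the strand of the box. Capitals mark CCAAT.
Slc25a42 (chr8:70212548-70212576, plus strand): cagagcttccggCCAATtgccaaggggta
Slc25a25 (chr2:32451876-32451904, plus strand): tcttctaaactgCCAATaaaacaactgaa
Slc25a28 (chr19:43675184-43675212, minus strand): ttctctccacatCCAATggaagaacgaag
Slc25a35 (chr11:68967954-68967982, plus strand): tccggcaccctcCCAATgccaggcctggg
Slc2a8 (chr2:32982212-32982240, plus strand): aggcacgactgtCCAATtggagtgtggtg
Slc43a2 (chr11:75531588-75531616, minus strand): aacaggcgtcggCCAATcagcagctaccc
Slc39a3 (chr10:81037327-81037355, minus strand): cactgacagtgtCCAATagacgctgatgt
Slc4a7 (chr14:14702817-14702845, minus strand): cattcgtatcagCCAATcagcagctcgga
Slc25a29 (chr12:108835898-108835926, plus strand): ggcagagcgcaaCCAATcggtaagcgagg

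The Slc25a42 peak, the highest of all SLC peaks, held 10 CCAAT pentamers over both strands. A stretch of 98 bases just upstream of the gene holds 4 of them, and it is given because boxes of both orientations alternate in it. It is read on the strand of the gene, so that capitals mark CCAAT and, for boxes on the other strand, its complement ATTGG.
Slc25a42 (chr8:70212334-70212431, minus strand): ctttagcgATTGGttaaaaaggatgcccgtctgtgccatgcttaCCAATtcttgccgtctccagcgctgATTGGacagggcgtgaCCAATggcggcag
Slc46a3, a transporter of the lysosomal membrane, had 3 boxes of 1 orientation in its promoter peak, and the stretch that spans them ends close to its TSS.
Slc46a3 (chr5:147894865-147895050, minus strand): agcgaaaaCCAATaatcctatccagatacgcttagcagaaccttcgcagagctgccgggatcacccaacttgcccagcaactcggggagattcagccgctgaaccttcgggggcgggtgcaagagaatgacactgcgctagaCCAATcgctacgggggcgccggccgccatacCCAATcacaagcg

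Values are normalised reads: the authors scaled the reads of a peak by the size factor of its library and rounded the outcome. They are not divided by peak length. In replicates 1, 2 and 3, 1 read was worth about 0.67, 1.48 and 1.02 normalised reads, which put about 5648, 2744 and 4110 reads into the 91 SLC peaks. Replicate 1 was therefore the most precise within these peaks and replicate 2 the least. Of the NF-YA libraries, the study lists the fewest uniquely mapped reads but the most peaks for replicate 1. The merged peak set may thus rest mostly on replicate 1, which would favour its reads in peaks and was not tested. Replicate 1 was also sequenced with shorter reads than the other libraries, and the part of this in the values was not tested. The SLC peaks held 1.18%, 1.21% and 1.23% of the summed values. Of the 91 peaks, 79 lay above 3 reads (2.01, 4.43 and 3.06 normalised reads) in all 3 libraries, 12 in only some and 0 in none. The median coefficient of variation (CV) of an SLC peak over the libraries was 24.4%, beside 22.6% from counting alone, and for all peaks it was 25.4% beside 26.6%. For the 10 highest SLC peaks it was 14.3% beside 9.30%. Each CV rests on only 3 values, while the counting figure was calculated from the mean, so that the 2 are not strictly alike. Their closeness does not show that libraries differed by counting error only. Across the 91 peaks Pearson's r between libraries was 0.883 to 0.917 on log2(value + 1). A level is a sum over many cells, so that binding in more cells and stronger binding per cell cannot be told apart.

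Most SLC peaks lay at promoters, meaning here that the centre of the peak was at most 1000 bp away from the TSS of the listed gene. There were 67 promoter peaks among the 91 (73.6%, 95% Wilson interval 63.7 to 81.6), while 41.4% of all 9056 peaks met this definition. Because every SLC peak had to lie near a gene to carry a symbol, peaks with a gene symbol are the closer reference, and 68.4% of these were promoter peaks, a share inside the SLC interval. Of the 67 promoter peaks, 46 were centred upstream of the TSS and 21 at or downstream of it, and 36 spanned the TSS. The 24 remaining SLC peaks comprised 16 in introns, 2 in exons and 6 upstream of the gene, and 5 of the 24 lay within 1000 bp of the start of another transcript of the same gene.

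Carriers of the Slc25 family gave the 4 highest SLC peaks. Slc25a42, which carries coenzyme A into mitochondria, had 517, 566 and 594 normalised reads in replicates 1, 2 and 3 (559 ± 39.0, SD, n = 3) and ranked 16 among all peaks. Its peak (chr8:70212206-70212979) was centred 287 bp upstream of the TSS. Slc25a25, a calcium-regulated carrier that exchanges ATP-Mg for phosphate, had 375, 489 and 467 (444 ± 60.5) in a peak at chr2:32451405-32452258, which was centred 386 bp upstream. All libraries of Slc25a42 lay above all libraries of Slc25a25. The peak of Slc25a25 held 6 CCAAT pentamers, none of them within 50 bp of the centre.

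Slc25a28, or mitoferrin 2, an importer of iron into mitochondria, followed with 235, 226 and 295 normalised reads (252 ± 37.5) in a peak at chr19:43674822-43675590. These values did not overlap those of its neighbours in the order. The transcript start nearest to the centre of this peak was that of another gene, AC138790.1, at 28 bp. The start of Slc25a28 lay 325 bp away, and binding to one or the other gene cannot be told apart. Slc25a35, a carrier whose substrate is not settled, had 123, 115 and 177 (138 ± 33.7) at chr11:68967667-68968268. From Slc25a35 down to Slc2a6, with a mean of 67.7, each peak overlapped the next in the order over the 3 libraries, so that these ranks are not resolved. Slc25a29, a mitochondrial carrier of basic amino acids, was also among the 10 highest SLC peaks, with 115, 121 and 69 (102 ± 28.4). Replicate 3 was the low library there. Its peak at chr12:108835549-108836219 sat 1 bp from the TSS and also within 1000 bp of the start of another carrier gene, Slc25a47, and binding to one or the other gene cannot be told apart.

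**Figure D1:**
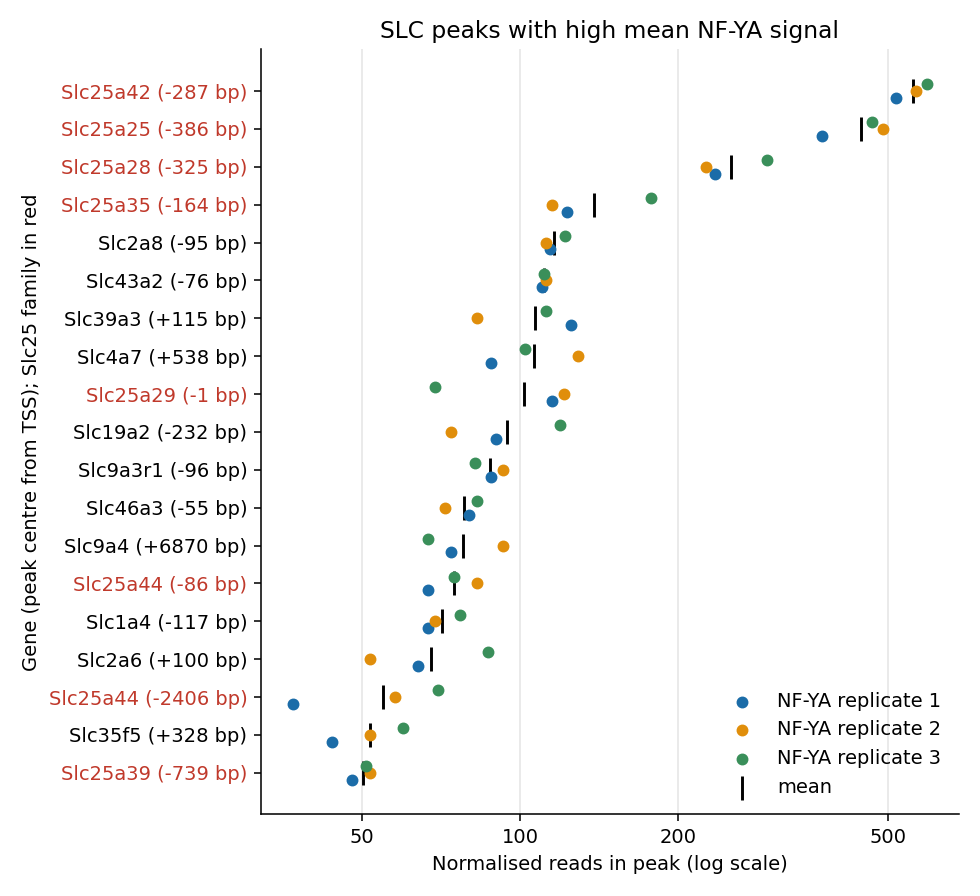
Normalised reads (log scale) of SLC peaks with high means, 1 row per peak with the distance of its centre from the TSS, with 1 point per NF-YA library and a bar at the mean. The 3 highest peaks, at Slc25a42, Slc25a25 and Slc25a28, stand apart in every library, and Slc25 peaks (red) fill the first 4 rows.

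A larger share of Slc25 genes than of the other SLC genes carried a peak, and it always included a promoter peak. Of 47 annotated Slc25 genes, 17 had a peak (36.2%, interval 24 to 50.5) and all 17 had a promoter peak. Of the 324 remaining SLC genes, 58 had a peak (17.9%, interval 14.1 to 22.4) and 43 a promoter peak. Over all SLC genes it was 75 of 371 (20.2%, interval 16.4 to 24.6), close to the 19% of all 21951 protein-coding genes. The intervals of Slc25 and the remaining SLC genes did not overlap. They treat genes as independent, and the difference itself was not tested.

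Slc25 promoter peaks also had higher medians in each library, a comparison chosen after the values were seen. The 17 Slc25 promoter peaks had medians of 35, 52 and 42 normalised reads in replicates 1, 2 and 3, while the 50 promoter peaks of the remaining SLC genes had 18.5, 20 and 21. The difference on the log2 scale was 1.10 ± 0.24 (SD, n = 3) and had the same sign in 3 of 3 libraries, with a two-sided exact sign-flip permutation p = 0.25, the smallest that 3 libraries allow. Slc25 peaks were also longer, with a median of 277 bp against 216.5 bp at promoters, and per kb the difference was 0.60. Without the 3 highest Slc25 peaks it was 0.55. Levels within the family varied widely. Slc25a30, a carrier related to the uncoupling proteins, had 10, 9 and 9 in its promoter peak, and the dicarboxylate carrier Slc25a10 had 7, 10 and 18. Slc25a17, which belongs to the family by sequence but sits in peroxisomes, had 33, 52 and 42.

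No peak was annotated to the most abundant carriers of oxidative phosphorylation on the preset list, the ADP/ATP carriers Slc25a4 and Slc25a5 and the phosphate carrier Slc25a3. The nearest peak centre of any gene lay 127689 bp, 10757 bp and 47593 bp from their transcript starts. The absence of a peak says only that none passed the peak calling of the study.

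**Figure D2:**
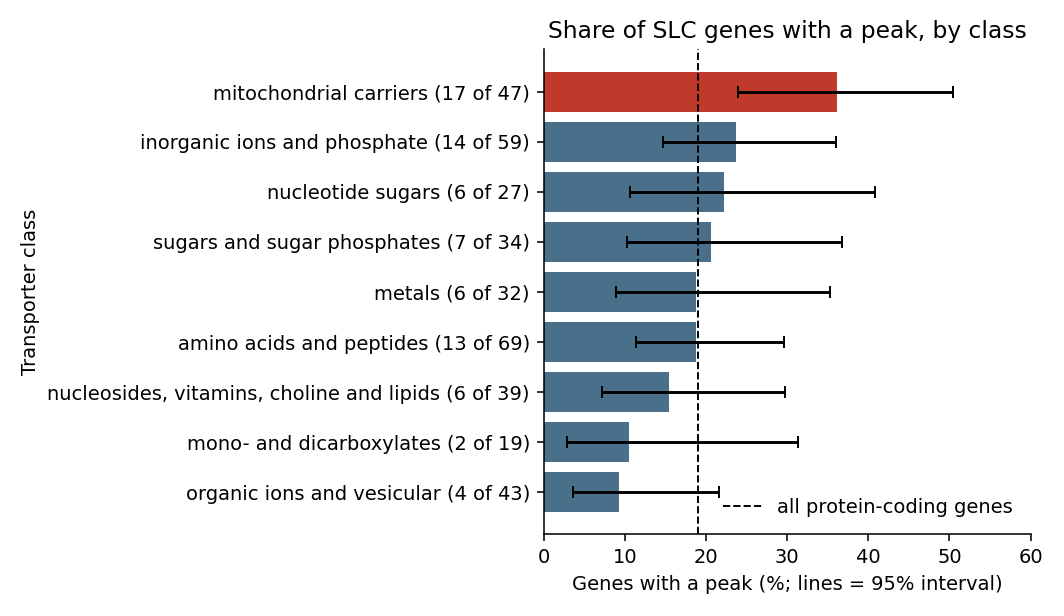
Share of annotated SLC genes with at least 1 NF-YA peak in each transporter class (bars, percent) with 95% Wilson intervals (lines), and the share over all protein-coding genes (dashed line, 19%). Mitochondrial carriers (red) have the highest share, 36.2%, and the intervals of the other 8 classes drawn include the dashed line. The class of all other family numbers (0 of 2 genes) is not drawn.

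Sugar transporters had peaks at 7 of 34 genes. Slc2a8, the intracellular glucose transporter GLUT8, was highest with 114, 112 and 122 normalised reads (116 ± 5.29) at chr2:32982007-32982349, a spread below that of most SLC peaks. A second, small peak of Slc2a8 had 3, 6 and 8. Slc2a1, the glucose transporter GLUT1 of most proliferating cells, had 29, 40 and 56 (41.7 ± 13.6) in a peak 33 bp from its TSS (chr4:119108563-119108925) and 11, 18 and 19 in a peak 515 bp downstream. In both peaks replicate 1 was the low library. Slc2a4, the insulin-responsive GLUT4 of muscle and fat, had 15, 19 and 23 (19 ± 4) in a peak centred 67 bp upstream of its TSS at chr11:69948176-69948334. The values of Slc2a4 lay below all 3 of the main Slc2a1 peak.

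Amino acid transporters had peaks at 13 of 69 genes, and their typical level was low, with medians of 12, 13 and 10.5 normalised reads over 18 peaks. The highest among them was Slc43a2, or LAT4, a sodium-independent transporter of branched-chain and other large neutral amino acids. It had 110, 112 and 111 (111 ± 1) at chr11:75531429-75531807 and a second promoter peak with 36, 34 and 43. Slc1a4, a transporter of small neutral amino acids, also had 2 promoter peaks, with 67, 69 and 77 in the higher and 26, 19 and 17 in the lower.

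The genes for the chains of the CD98/LAT1 exchanger, which imports large neutral amino acids, had peaks in different places. Slc3a2, the CD98 heavy chain, had a promoter peak with 11, 21 and 21 normalised reads (17.7 ± 5.77) centred 8 bp from its TSS, within 1000 bp of the starts of 3 other genes, the noncoding Snhg1 among them. No CCAAT was found in this peak. Slc7a5, its light chain LAT1, had 3 peaks, all in introns and none with CCAAT. They lay 1073, 5683 and 8996 bp downstream of the TSS, with 20, 13 and 7, with 34, 31 and 25, and with 9, 13 and 14 normalised reads. The CV of the first was 48.8%, and replicate 3 was the low library. The first 2 of these held the AP-1 word TGACTCA at the centre.

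Other amino acid transporters ranged from levels near the median of all peaks down to the lowest of the SLC peaks. Slc1a5, the glutamine transporter ASCT2, had 24, 13 and 13 (16.7 ± 6.35) at its promoter. Slc38a2, or SNAT2, had 7, 19 and 7 (11 ± 6.93) in an exon 2648 bp downstream of its TSS, the largest CV, 63%, among SLC peaks with a mean of at least 10. Replicate 2, the library with the fewest reads in peaks, alone was high. Slc7a11, the cystine transporter xCT, had 5, 3 and 0 and the lowest mean of all SLC peaks (2.67 ± 2.52). Slc7a1, which carries cationic amino acids, was next with 4, 3 and 2. Slc6a17, Slc38a4 and Slc35f6, the last of the nucleotide sugar transporter family, followed, each with a mean of 4.33. In replicate 2 all 5 of these peaks were at or below 3 reads.

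Peaks for inorganic ions and phosphate lay at 14 of 59 genes. Slc4a7, a sodium bicarbonate cotransporter that extrudes acid, was highest with 88, 129 and 102 normalised reads (106 ± 20.8), in an exon 538 bp downstream of the listed TSS (chr14:14702650-14702984). Slc20a1, the phosphate importer PiT-1, had 55, 44 and 51 (50 ± 5.57) in a peak centred 110 bp upstream. The scaffold gene Slc9a3r1 had 88, 93 and 82.

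Slc9a4 and Slc8b1 had peaks away from their starts. Slc9a4, a sodium/proton exchanger of epithelia, had 74, 93 and 67 normalised reads (78 ± 13.5) 6870 bp downstream of its TSS, and this peak lay 110 bp from a transcript start of Gm37435. Slc8b1, the sodium/calcium exchanger of mitochondria, had 3 intronic peaks with 23, 24 and 30, with 13, 25 and 27, and with 11, 19 and 15. All 3 held CCAAT within 50 bp of the centre, and none was at the promoter. The first 2 overlapped in their values.

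Metal transporters had peaks at 6 of 32 genes. Slc39a3, the zinc importer ZIP3, had 125, 83 and 112 normalised reads (107 ± 21.5) at chr10:81037099-81037523, with replicate 2 the low library. The zinc exporter Slc30a1, or ZnT1, had 45, 24 and 28 (32.3 ± 11.2) in a promoter peak. Its values lay below all 3 of Slc39a3. The zinc transporter Slc39a7 had no peak of its own, and the nearest peak was annotated to Hsd17b8 and lay 2916 bp from its transcript starts.

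In the remaining classes single genes stood out. Slc19a2, which imports thiamine, had 90, 74 and 119 normalised reads (94.3 ± 22.8) at chr1:164248615-164249013. Among the nucleotide sugar transporter family, with peaks at 6 of 27 genes, Slc35f5 was highest with 44, 52 and 60 (52 ± 8), in a peak without CCAAT. Slc22a5, the carnitine transporter OCTN2, had 19, 46 and 22 (29 ± 14.8) and the second largest CV, 51.0%. It again was replicate 2 that was high. The highest peak of the carboxylate families, with peaks at 2 of 19 genes, was that of Slc16a10, which carries aromatic amino acids, with 9, 15 and 11.

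Of the 19 transporters on the preset list, 10 had a peak, 8 of them at the promoter, and over all protein-coding genes the shares were 19% and 14.8%. The 9 without a peak were, besides those of mitochondria and Slc39a7, the lactate transporter Slc16a1, the creatine transporter Slc6a8, the sodium-potassium-chloride cotransporter Slc12a2, the nucleoside transporter Slc29a1 and the folate transporter Slc19a1. The nearest peak to Slc29a1 was annotated to Mymx, 2522 bp away, with a mean of 4.33.

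**Figure D3:**
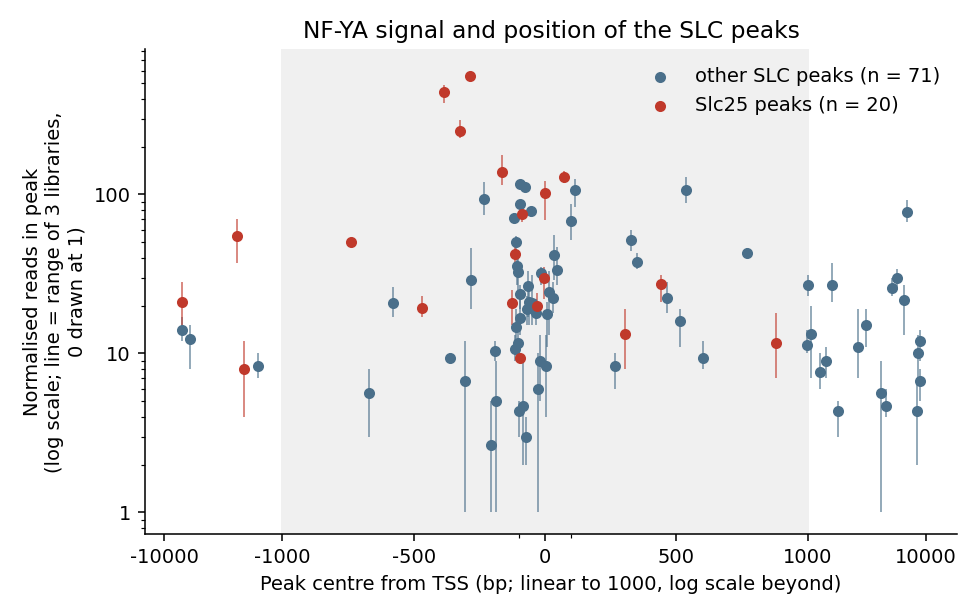
Mean normalised reads (log scale) of the 91 SLC peaks against the distance of the peak centre from the TSS (linear to 1000 bp, log scale beyond), with lines from the lowest to the highest of 3 libraries and the promoter window shaded. The 13 peaks with means of at least 78.3 lie in the promoter window. The next, Slc9a4 with a mean of 78, lies 6870 bp downstream of its TSS, and most peaks outside the window stay below 30.

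Promoter peaks had higher medians than the remaining SLC peaks in each library. The 67 promoter peaks had medians of 22, 22 and 24 normalised reads and the 24 others 10.5, 13 and 13.5, a log2 difference of 0.89 ± 0.16 (SD, n = 3). It had the same sign in 3 of 3 libraries (two-sided exact sign-flip permutation test, p = 0.25), and with a promoter limit of 5000 bp it was 0.48. For genes other than SLC the same difference was 1.29 ± 0.08. Compared with promoter peaks of other genes, those of SLC genes were lower in each library, by medians of 22 against 31, 22 against 30 and 24 against 32, a log2 difference of -0.45 ± 0.04 (exact sign-flip permutation p = 0.25). SLC promoter peaks were also shorter, with a median of 223 bp against 255 bp. Per kb of peak, the medians of the means over libraries lay closer, at 111 against 122 normalised reads. Away from promoters the difference between SLC and other genes was -0.05 ± 0.13 (exact sign-flip permutation p = 1), smaller than the spread between libraries. Over all peaks with a symbol it was -0.17 ± 0.09, -0.11 per kb of peak, and -0.39 among those with a mean of at least 10. Among the 2261 highest peaks of the whole table stood 34.3% of SLC promoter peaks (interval 24.1 to 46.3) and 43.8% of all promoter peaks.

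**Figure D4:**
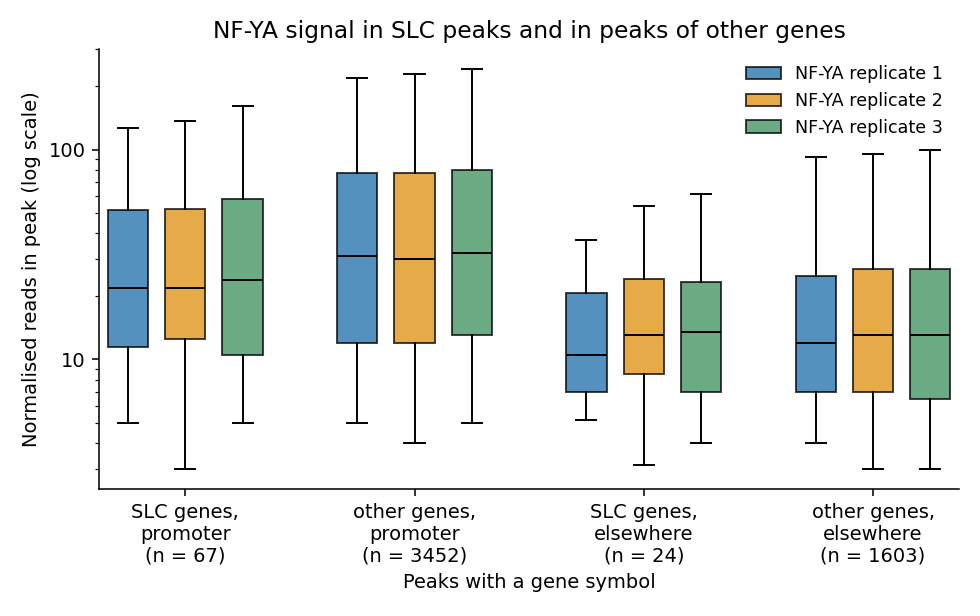
Normalised reads per peak (log scale) in each NF-YA library for promoter peaks and peaks elsewhere, of SLC genes and of other genes with a symbol (line: median, box: quartiles, whiskers: 5th and 95th percentiles). SLC promoter medians are 22 to 24 and those of other genes 30 to 32, while away from promoters the boxes largely coincide.

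SLC promoters were seldom shared with another coding gene. A TSS of another gene of any kind lay within 1000 bp of the centre of 13 of the 67 promoter peaks (19.4%, interval 11.7 to 30.4), beside 30.9% of all promoter peaks. Another protein-coding gene started there in 2 of 67 (2.99%, interval 0.822 to 10.2), beside 16.4% of all promoter peaks. These were the Slc25a29 peak described above and that of Slc25a27, an uncoupling protein-like carrier whose start lies close to that of Cyp39a1, with 35, 22 and 33 normalised reads. Restricting both sides to promoter peaks without another coding start left the difference between SLC and other genes at -0.41 ± 0.06.

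CCAAT was found within 50 bp of the centre, on either strand, in 58 of the 91 SLC peaks (63.7%, interval 53.5 to 72.9), while 52.8% of all peaks held it. Of peaks with a gene symbol, 59% held it. In windows of the same length 1000 bp to either side of the SLC centres it was present in 11% and 9.89%, and the centre held CCAAT without the left window in 52 peaks while the reverse was seen in 4. At promoters 46 of 67 SLC peaks held it (68.7%) beside 64.5% of all promoter peaks, and away from promoters it was 12 of 24 (50%) beside 44.5%. The longer word CCAATCAG stood at the centre of 11 of 91 SLC peaks, Slc43a2, Slc4a7 and Slc20a1 among them, and in 0 of 91 windows on either side. All peaks held it in 10.6%.

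Most boxes inside the SLC promoter peaks lay upstream of the starts. In 50 of the 67 SLC promoter peaks there were 100 CCAAT pentamers, and 81 of them lay upstream of the TSS, 48 within 150 bp of it. The median position was -83.5 bp (quartiles -197 and -30.5). Promoter peaks had to be centred within 1000 bp of the TSS, and 46 of the 67 were centred upstream of it. Closeness of the boxes to the start thus follows in part from this choice, and box positions in promoter peaks of other genes were not compared. As many as 54 read in the direction of the gene and 46 against it, so that neither orientation prevailed by much.

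Peaks with more boxes had higher medians. The 28 SLC peaks without CCAAT had medians of 11, 12.5 and 8.5 normalised reads, the 34 with 1 pentamer 16, 18 and 19, the 19 with 2 pentamers 36, 34 and 42, and the 10 with 3 or more 118.5, 102.5 and 117. Between neighbouring groups the library medians did not overlap. Slc25 peaks made up 5 of the last group, among them the 4 highest SLC peaks. Box number and log2(mean + 1) had a Spearman rho of 0.633 across the 91 peaks, and 0.585 across all 9056. Peak length had a rho of 0.931 with the level, and longer peaks have more room for boxes, so that length, level and box number cannot be told apart here.

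**Figure D5:**
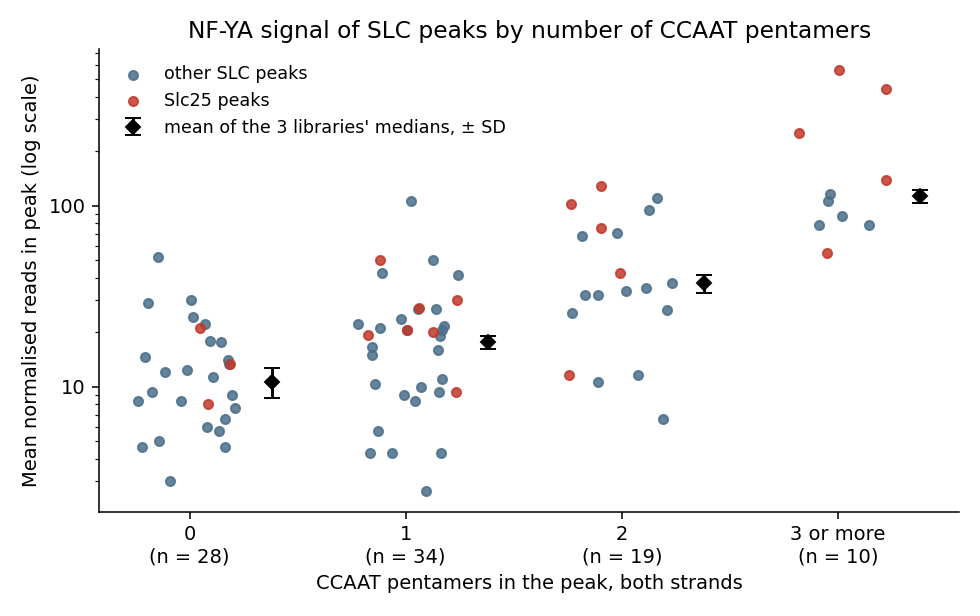
Mean normalised reads (log scale) of the 91 SLC peaks by the number of CCAAT pentamers in the peak, with Slc25 peaks in red (points are spread sideways for legibility) and the mean ± SD of the 3 library medians as diamonds. The diamonds rise from 10.7 for peaks without the pentamer to 113 for those with 3 or more.

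Peaks with CCAAT at the centre had higher medians than those without, 26.5, 24.5 and 28 against 12, 13 and 10 normalised reads, a log2 difference of 1.18 ± 0.29 (exact sign-flip permutation p = 0.25). Per kb of peak it was 0.63, and among peaks with a mean of at least 10 it was 0.70. The high Slc25a25 peak, with 6 boxes away from its centre, counted as without.

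Other promoter words were searched in the same windows, on both strands. The GC box GGGCGG, the element of Sp factors, was present in 33 of 67 SLC promoter peaks (49.3%, interval 37.7 to 60.9), beside 39.1% of all promoter peaks. Away from promoters it was in 1 of 24 SLC peaks (4.17%), beside 8.68% of all peaks there. The AP-1 word TGACTCA, by contrast, was in 2 promoter peaks (2.99%, beside 2.19% of all promoter peaks) and in 6 of 24 others (25%, interval 12 to 44.9). Away from promoters 15% of all peaks held it, and 12.5% of those with a gene symbol. Besides 2 peaks of Slc7a5 the 6 were peaks of Slc29a2, Slc38a1, Slc6a17 and Slc35f6. Those of Slc38a1 and Slc35f6 lay 318 and 237 bp from the start of another transcript of the same gene. TATAAA was in 2 SLC peaks (2.2%, beside 1.77% of all peaks), 1 of them the main peak of Slc2a1, and the CRE word TGACGTCA in 1 (1.1%, beside 0.729%), that of Slc25a36. The word TGATGCAA and the ER stress element (CCAAT, 9 bases, CCACG) were in 0 of 91, beside 0.177% and 0.0994% of all peaks. These are matches of letters and not proof of a bound factor.

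The genome around the starts was compared with the peaks from 250 bases before to 50 bases after each annotated gene start. CCAAT was present in that window in 46 of the 60 SLC genes with a promoter peak (76.7%, interval 64.6 to 85.6), in 4 of 15 with a peak elsewhere only and in 81 of the 296 without a peak (27.4%, interval 22.6 to 32.7). For all protein-coding genes the shares were 74.1%, 26.3% and 33.3%. All 9 preset transporters without a peak lacked CCAAT in this window. Of the 131 SLC genes with CCAAT in this window, 81 had no peak that passed the peak calling. Among all protein-coding genes with CCAAT there, 5921 of 8569 had none.

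More than 1 peak was found at 14 of the 75 SLC genes (18.7%), beside 18.3% of all genes with a peak. In 10 of the 14 the highest peak lay above the next in all 3 libraries without overlap. The highest was picked by its mean over the same libraries, which favours such a gap, and other genes were not compared. The gap was widest in Slc25a25, whose second peak 7061 bp upstream had 15, 28 and 20 normalised reads, and in Slc2a8. Slc25a44, a carrier of branched-chain amino acids, was different: its promoter peak had 67, 83 and 75, and its peak 2406 bp upstream had 37, 58 and 70, so that the values overlapped.

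Of the marker genes of this cell type, Myod1 had 2 peaks, and Pax7, Myf5 and Myog had none. Binding at a gene is not expression, and the label of the cells was not tested by it.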

How the data were processed

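According to their methods, the authors trimmed reads with Trimmomatic 0.39, aligned them to mm10 with STAR 2.7.9a, removed duplicates with Picard 2.25.5, called peaks in NF-YA against IgG libraries, merged them, counted reads with featureCounts and normalised with DESeq2 1.30.0. Peaks received the nearest gene with a TSS within 10000 nt. The deposited values carry the unit score: the authors divided reads per peak by a size factor and rounded them. Size factors cannot show a change of all peaks together. Peaks were called on the libraries whose levels are given, which favours values that were high by chance.

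The value of 1 read was estimated by maximum likelihood from the whole numbers that occur. No count model was used. Differences are log2 ratios of the medians of 2 sets of peaks within a library, compared over the 3 NF-YA libraries by a two-sided exact sign-flip permutation test. Shares carry 95% Wilson intervals, which cover counting error only. Sequences and gene models came from GRCm38.p6 and GENCODE M21. The listed distance matched the peak centre in 6191 of 6191 annotated peaks, and starts are printed counted from 1.

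The members, the gene lists and the tests were chosen with earlier results of these data known. Named were the 10 highest peaks, the highest of each class by family number, a preset list of 19 transporters, genes with 3 or more peaks, the 3 largest CVs at a mean of at least 10 and the lowest means (5 peaks, with a tie). Peaks of some genes that this rule names are not reported here. All other genes named, the word CCAATCAG and the contrast of Slc25 with the remaining SLC genes were chosen after their values were seen. Computations ran in Python 3.11.15 with pysam 0.24.0, numpy 2.4.6, pandas 2.3.3, scipy 1.17.1 and matplotlib 3.10.9. On simulated data for 9056 peaks the estimate of 1 read was off by no more than 0.253%, and 200 of 200 planted boxes were found.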

Additional observations from a re-analysis of the deposited data

How the results depend on the processing

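Of 52 alternatives to 10 results, 36 stayed within the error of the value in the report, 16 moved beyond it and 0 changed direction. Of the 52, 11 were chosen after seeing the data. The promoter share was 87.9% with starts within 5000 bp. Limiting peaks to a mean of at least 10 changed the log2 difference between SLC and other peaks to -0.39, that between peaks with and without CCAAT to 0.70, the median CV to 22.2% and the share of SLC genes with a peak to 15.6%. With promoter peaks only, the first was -0.45, or -0.41 without promoters near another coding start, and the share of genes was 16.2%. Values per kb gave 0.62 for promoter against other SLC peaks, 0.63 for peaks with against without CCAAT and 0.60 for Slc25 against remaining promoter peaks. A limit of 5000 bp gave 0.48 for promoter against other peaks, and leaving out the 3 highest Slc25 peaks gave 0.55. Shared promoters fell to 2.99% with protein-coding genes only. Leaving out each replicate gave -0.22 to -0.14 for SLC against other peaks, 0.79 to 0.95 for promoter against other SLC peaks, 1.03 to 1.31 with against without CCAAT, 0.96 to 1.19 for Slc25 and 18.2% to 25% for the CV, where leaving out replicate 1 gave the lowest value.

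With 3 libraries no test here can reach a p below 0.25. Replicate 2 had the fewest reads in peaks, and 11 of 91 SLC peaks were at or below 3 reads in it. No paired analysis was possible because the replicate numbers pair NF-YA with IgG libraries, and IgG values were not analysed here. The planned comparison with IgG and its replicate block were not run.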

Other observations

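Chromosome 11 held 16 of the 91 SLC peaks (17.6%, 95% Wilson interval 11.1 to 26.7), beside 9.26% of all peaks and 10.1% of peaks with a gene symbol. These lay at 12 of the 34 SLC genes of that chromosome, among them Slc25a35 and Slc43a2. The share was noticed in the data and was not tested.

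Neighbouring CCAAT pentamers within an SLC peak formed 30 pairs on the same strand and 25 on opposite strands, with median spacings of 50.5 and 42 bp between their starts. A spacing of 30 to 32 bp was seen in 2 and 1 of these pairs.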
